A study of Mus musculus with 16 samples.

Results

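Astrocytes and the glial stem cells of the adult brain share many genes, and 30 of them were followed here out of 19938 genes measured. They were chosen by name: 6 genes linked to the stem cell niche (Gfap, Thbs4, Prom1, Nes, Vim and Tnc), 21 genes of parenchymal astrocytes, and 3 genes (Fabp7, Sox2 and Sox9) that astrocytes share with progenitors. Each gene was read from its brightest probe set with a single gene symbol, and all 30 had such a probe set. RNA was measured on 16 Affymetrix arrays, 1 per sample, in mice of 2.5 months from a mixed background (C57BL/6, CD1). Samples came from the subependymal zone (SEZ), the ventricle wall in which adult stem cells make neurons, or from the olfactory bulb core (OB), the place those neurons travel to. The design asks how expression differs between the tissues and what the loss of Brg1, a chromatin remodelling ATPase encoded by Smarca4, does in each.

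The groups were SEZ from conditional knockout mice (SEZ cKO, 3 samples), SEZ from control mice (SEZ control, 5 samples), OB from conditional knockout mice (OB cKO, 3 samples) and OB from control mice (OB control, 5 samples). The cKO mice were GlastCreERT2/Brg1fl/fl, with 2 floxed copies of Brg1. The controls carried the same recombinase and 1 floxed copy, except SEZ control replicate 5, whose label gives 0 floxed copies. GlastCreERT2 places a tamoxifen-dependent recombinase at the locus of the glutamate transporter Glast (Slc1a3), which is active in astrocytes and adult stem cells. The recombined cells are thus of the kind whose genes are described here, in tissue that also holds neurons and other cells. The labels list no treatment, and no source used here gives the time of induction. The labels call the samples biological replicates.

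As background, adult neural stem cells of the SEZ are astrocyte-like cells that contain glial filaments and touch the ventricle beside ependymal cells. Parenchymal astrocytes clear glutamate and potassium, couple through gap junctions, supply lipids and line blood vessels through water channel-rich endfeet. Many of their genes are active in stem cells too, so the tissue level of such a gene sums over both.

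Values are log2 expression, so a difference of 1 is a doubling of signal, and levels are not compared between genes, since probe sets differ in response. All tests are two-sided limma contrasts in a fit of all 16 arrays, adjusted over all 19938 genes, with calls at an adjusted p under 0.05. Smarca4 itself had a log2 difference of -0.01 (95% interval -0.14 to 0.12) between cKO and control in SEZ and of 0 (-0.12 to 0.13) in OB. Where its probes lie relative to the deleted exons is not known here, and the tissue also holds cells in which the recombinase is not active, so this checks nothing about the deletion. Some arrays stood apart in other genes. Slc1a3 was at 8.16 and 8.85 in the SEZ and OB samples of cKO replicate 3 and between 11.16 and 12.27 elsewhere. Cortical neuron markers were high in SEZ control replicates 2 and 4, with list means of 8.15 and 8.60 against 6.39 to 6.88 in the other SEZ samples. The sex-linked gene Xist did not match in cKO replicate 1, at 12.4 in the SEZ and 6.08 in the OB sample. Its level in the other samples is not given here. Results without these arrays are given where a call depends on them.

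Of the 30 genes, 27 had a mean above that of the median gene (8.11), and the 3 below it were Prom1, Nes and Tnc. Their median SD between samples of a group was 0.19, against 0.14 over all genes. Ndrg2 had the smallest SD of the 30 (0.05) and Slc7a11, the cystine transporter, the largest (0.45).

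Thbs4 was far higher and Fabp7 far lower in SEZ than in OB, and the other genes differed by less than 0.7 on the log2 scale. In such bulk tissue, fewer cells of a type and less RNA per cell cannot be told apart. In SEZ relative to OB of cKO mice, 5 of 30 genes were higher (Thbs4, Nes, Tnc, Clu and Ndrg2) and 3 lower (Aqp4, Atp1b2 and Fabp7), with 23.1% of all genes called, 13.1% higher and 10% lower. In controls 5 were higher (Thbs4, Prom1, Nes, Clu and Ndrg2) and 6 lower (Aqp4, Slc7a10, Acsbg1, Slc4a4, Atp1b2 and Fabp7), with 27.5% of all genes called, 14.9% higher and 12.6% lower. The shares of the 30 genes called were thus near the background. Of the 6 niche genes, 3 were higher and 0 lower in cKO mice, and likewise in controls, with median log2 differences of 0.43 in cKO mice and 0.32 in controls. Of the 21 parenchymal genes, 2 were higher and 2 lower in cKO mice and 2 higher and 5 lower in controls, with a median of 0.02 in each genotype. The median over all genes was 0.02 in cKO mice and 0 in controls. The 7 genes called in both genotypes had the same direction in each. The shared calls made up 87.5% of the calls in cKO mice and 63.6% of those in controls. The same shares over all genes were not counted, so whether this overlap exceeds the background is not known here. The genotypes share no arrays in these contrasts, but the fit of all arrays gives each gene a common variance. The calls in the genotypes are thus not fully independent. The tissue difference in cKO mice minus that in controls, which is also the SEZ genotype effect minus the OB genotype effect, was called for 0 of the 30 genes and 0.00502% of all genes, so no tissue difference is shown to depend on genotype. Groups of the tissues did not overlap for 8 genes higher and 7 lower in SEZ of cKO mice, against 19% and 14.3% of all genes, and for 3 higher and 3 lower in controls, against 11.9% and 9.93%.

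**Figure D1:**
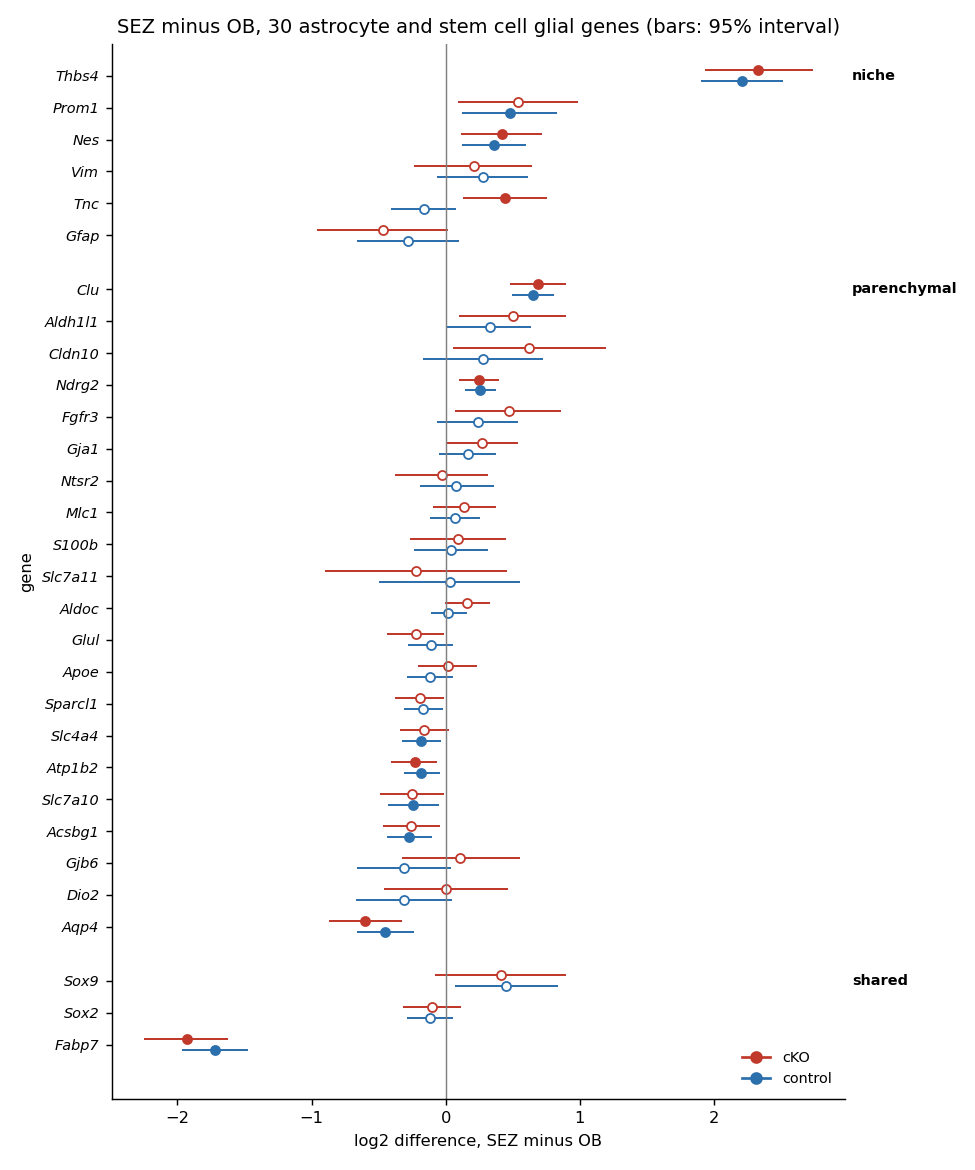
Log2 difference between SEZ and OB (horizontal axis) for each of the 30 genes (vertical axis), in cKO mice (red) and controls (blue), with 95% intervals as bars. Filled points had an adjusted p under 0.05 and open points did not; Thbs4 (2.33 in cKO mice, 2.21 in controls) and Fabp7 (-1.93 in cKO mice, -1.72 in controls) have the largest differences in each direction.

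Thbs4, thrombospondin 4, a secreted matrix glycoprotein made by astrocytes of the SEZ, had the largest difference of the set. Its level was 9.96, 9.72 and 10.33 in SEZ cKO samples and 9.51, 10.33, 9.93, 9.91 and 9.80 in SEZ control samples. In OB it was at 7.58, 7.55 and 7.89 in cKO samples and 7.60, 7.92, 7.88, 7.57 and 7.47 in control samples. Every SEZ sample stood above every OB sample, and the genotypes overlapped within each tissue. The log2 difference between SEZ and OB was 2.33 (SE 0.19) in cKO mice, a 5.04-fold level with an adjusted p of 4.67e-08. In controls it was 2.21 (SE 0.14), a 4.63-fold level with an adjusted p of 2.21e-09.

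Nes, nestin, an intermediate filament of neural progenitors that blood vessels also make, had smaller differences. It was at 7.39, 7.46 and 7.78 in SEZ cKO samples and 7.51, 7.23, 7.65, 7.28 and 7.44 in SEZ control samples. The OB values were 7.33, 6.96 and 7.08 in cKO samples and 7.04, 7.32, 6.94, 6.87 and 7.15 in control samples. The cKO samples did not overlap between the tissues, while in controls OB replicate 2 lay above SEZ replicates 2 and 4. On the log2 scale, SEZ minus OB was 0.42 (SE 0.14, adjusted p 0.0378) in cKO mice and 0.36 (SE 0.11, adjusted p 0.0178) in controls. In cKO mice the call was lost in 11 of 33 alternatives, and without SEZ cKO replicate 3 the difference was 0.30 (adjusted p 0.167). Without both cKO replicate 3 arrays it was 0.28 (adjusted p 0.30). Leaving out SEZ cKO replicate 2, OB cKO replicate 2 or OB cKO replicate 3 also ended it, with adjusted p-values of 0.0561, 0.13 and 0.106. In controls the adjusted p was 0.0502 without SEZ control replicate 3 and 0.0526 without OB control replicate 4.

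Prom1, prominin 1, is a membrane protein known as CD133 that marks ciliated and stem cell surfaces. Its level was 8.47, 8.32 and 7.67 in SEZ cKO samples and 8.07, 8.49, 7.88, 8.44 and 8.16 in SEZ control samples. OB gave 7.53, 7.87 and 7.42 in cKO samples and 7.77, 7.94, 7.30, 7.84 and 7.83 in control samples. The lowest SEZ sample in each genotype overlapped the OB samples. The log2 difference was 0.54 (SE 0.21, adjusted p 0.0721) in cKO mice and 0.48 (SE 0.16, adjusted p 0.0363) in controls. In cKO mice it passed without SEZ cKO replicate 3 (0.79, adjusted p 0.00859) or OB cKO replicate 2 (0.68, adjusted p 0.0396), and without both cKO replicate 3 arrays (0.69, adjusted p 0.0387). The control call was lost without SEZ control replicates 2, 4 or 5 or OB control replicates 1 or 3, with adjusted p-values between 0.056 and 0.107. SEZ control replicates 2 and 4 are those with high cortical neuron markers, and without both of them the difference was 0.30 (adjusted p 0.269).

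Tnc, tenascin C, a matrix glycoprotein of the niche, was called in cKO mice and not in controls, and the test of that difference follows with the genotypes. It was at 7.37, 7.24 and 7.68 in SEZ cKO samples and at 7.29, 7.73, 7.53, 7.60 and 7.37 in SEZ control samples. In OB it was at 6.93, 7.02 and 7.02 in cKO samples and at 7.49, 7.91, 7.45, 7.90 and 7.58 in control samples. The 3 OB cKO samples were the lowest of all 16. The log2 difference between SEZ and OB was 0.44 (SE 0.14, adjusted p 0.0334) in cKO mice and -0.16 (SE 0.11, adjusted p 0.337) in controls. The cKO call was lost in 10 of 33 alternatives, and leaving out SEZ cKO replicate 1 or 3, or any OB cKO replicate, each ended it, with adjusted p-values of 0.0555 to 0.154. Without both cKO replicate 3 arrays the difference was 0.33 (adjusted p 0.219), and without both cKO replicate 1 arrays it was 0.44 (adjusted p 0.15).

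Gfap and Vim, both intermediate filament genes, were not called. Gfap, the classical filament of astrocytes and of SEZ stem cells, was at 9.01, 9.19 and 9.37 in SEZ cKO samples and at 8.83, 9.94, 9.23, 9.43 and 9.50 in SEZ control samples. The OB values were 9.69, 9.83 and 9.45 in cKO samples and 9.36, 10.12, 9.52, 9.86 and 9.48 in control samples. The SEZ cKO samples all lay below the OB cKO samples, and the control samples overlapped. On the log2 scale, SEZ minus OB was -0.47 (SE 0.23, adjusted p 0.165) in cKO mice and -0.28 (SE 0.18, adjusted p 0.285) in controls, the opposite sign to the niche genes called. Of the 8 SEZ and OB pairs with the same number and genotype, 7 had less Gfap in SEZ. Of these 7, 4 were in controls and 3 in cKO mice. The labels do not tie the numbers to animals, and the cKO replicate 1 pair, counted here, did not match in Xist. The control replicate 5 pair does not match in its labels, with 0 floxed copies in SEZ and 1 in OB. With pairs as blocks the difference in controls passed, at -0.28 with an adjusted p of 0.046.

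Vim, vimentin, made by progenitors, ependymal cells and vessels, was at 11.42, 11.67 and 11.61 in SEZ cKO samples and at 12.02, 11.53, 12.08, 11.35 and 11.59 in SEZ control samples. OB gave 11.70, 11.17 and 11.22 in cKO samples and 11.77, 11.66, 11.45, 11.16 and 11.14 in control samples. Values of the tissues overlapped in both genotypes. The log2 difference was 0.21 (SE 0.20, adjusted p 0.55) in cKO mice and 0.28 (SE 0.16, adjusted p 0.232) in controls.

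**Figure D2:**
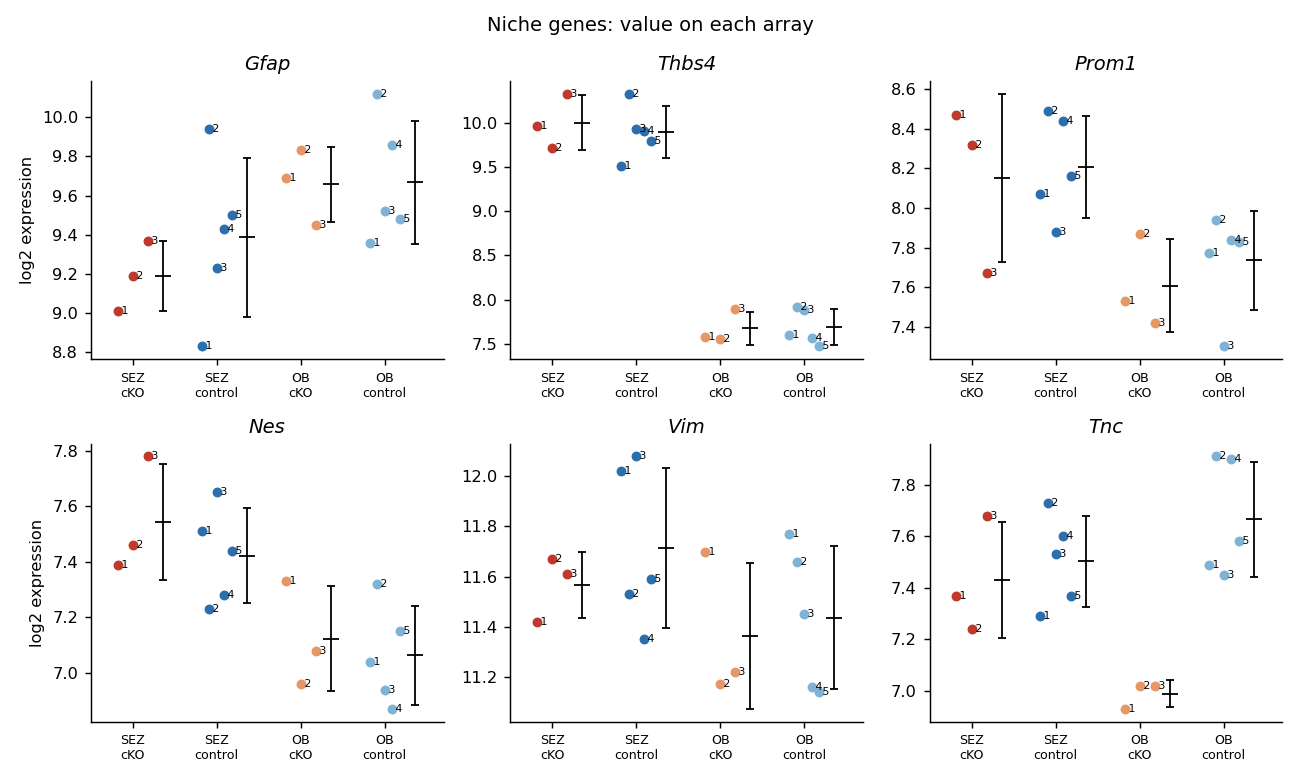
Log2 expression (vertical axis) of the 6 niche genes on each array, in SEZ cKO, SEZ control, OB cKO and OB control samples; digits are replicate numbers and black bars are the mean ± SD. For Thbs4 all SEZ samples lie at 9.51 or above and all OB samples at 7.92 or below, and for Tnc the 3 OB cKO samples lie at 7.02 or below.

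The promoters of the genes with the largest tissue difference in each direction, Thbs4 and Fabp7, are shown with that of Gfap, whose difference had the opposite sign to the called niche genes. They come from RefSeq on build GRCm38.p6 and run from 250 bases before to 50 bases after the gene start, in the direction of transcription. Thbs4 is at chr13:92794769-92795068 on the minus strand, Fabp7 at chr10:57784673-57784972 on the plus strand and Gfap at chr11:102897151-102897450 on the minus strand. Capitals mark matches, on either strand, to the half-site of nuclear factor I (TTGGC), to a SOX motif (ACAAAG) and to a STAT motif (TTCNNNGAA), factors known in astrocyte development.
Thbs4: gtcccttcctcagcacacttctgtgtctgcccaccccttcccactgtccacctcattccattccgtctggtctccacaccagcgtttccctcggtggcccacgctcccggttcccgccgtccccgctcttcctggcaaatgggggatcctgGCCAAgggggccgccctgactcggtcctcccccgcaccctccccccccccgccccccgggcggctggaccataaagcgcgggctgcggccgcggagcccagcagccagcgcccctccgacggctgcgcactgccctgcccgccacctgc
Fabp7: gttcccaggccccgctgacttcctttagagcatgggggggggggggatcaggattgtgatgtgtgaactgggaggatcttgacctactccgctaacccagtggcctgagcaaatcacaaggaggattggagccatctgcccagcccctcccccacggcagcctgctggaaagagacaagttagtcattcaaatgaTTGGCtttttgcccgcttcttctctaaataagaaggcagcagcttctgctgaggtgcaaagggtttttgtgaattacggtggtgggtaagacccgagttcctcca
Gfap: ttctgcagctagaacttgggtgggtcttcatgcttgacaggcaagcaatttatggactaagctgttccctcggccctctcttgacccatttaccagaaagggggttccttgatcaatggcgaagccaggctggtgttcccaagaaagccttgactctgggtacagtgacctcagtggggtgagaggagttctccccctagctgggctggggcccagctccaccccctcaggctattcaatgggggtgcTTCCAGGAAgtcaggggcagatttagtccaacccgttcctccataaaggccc
The Thbs4 promoter held 1 nuclear factor I half-site, on the opposite strand at position -99 from the start, and the Fabp7 promoter held 1 at position -55. The Gfap promoter held 0 such half-sites and 1 STAT motif at position -2. Of the 30 genes, 25 had a promoter in the table. The nuclear factor I half-site was in 16 of these 25 (64.0%), against 47.0% of all 27025 promoters. The SOX motif was in 5 (20%, against 18.7% of all) and the STAT motif in 4 (16%, against 8.5% of all). Matches of different motifs shared 1 base in the promoters of Apoe and Slc7a11 and 0 bases in the 3 promoters shown. These are letter matches only.

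Fabp7, the brain lipid-binding protein of radial glia and astrocytes, was the gene furthest below its OB level in SEZ. It was at 11.59, 11.61 and 11.53 in SEZ cKO samples and at 11.89, 11.95, 11.95, 11.74 and 11.74 in SEZ control samples. In OB it was at 13.79, 13.38 and 13.37 in cKO samples and at 13.72, 13.82, 13.76, 13.32 and 13.26 in control samples. All SEZ samples stood below all OB samples. On the log2 scale, SEZ minus OB was -1.93 (SE 0.15) in cKO mice, a 3.82-fold lower level in SEZ with an adjusted p of 2.41e-08. In controls it was -1.72 (SE 0.11), a 3.30-fold lower level with an adjusted p of 2.47e-09. Olfactory ensheathing glia also make Fabp7. Of 6 ensheathing glia markers, Frzb (-3.50) and Matn2 (-0.92) were lower and Fabp5 (0.62) higher in SEZ than in OB of controls. In the same contrast 12.6% of all genes were lower and 14.9% higher. Over the 6 markers, 4 estimates lay above 0 and 2 below in controls, with a median log2 difference of 0.19. In cKO mice 3 lay above 0 and 3 below, with a median of -0.04. Frzb differed most and weighs heavily in the list mean. The mean of that list ranged from 8.14 to 8.45 in SEZ cKO, 8.25 to 8.42 in SEZ control, 8.90 to 8.97 in OB cKO and 8.76 to 9.13 in OB control samples, and its part in the Fabp7 difference was not tested.

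Sox2 and Sox9, the transcription factors of the shared group, were not called. Sox2, which maintains progenitors, had log2 differences of -0.10 (adjusted p 0.565) in cKO mice and -0.12 (adjusted p 0.316) in controls. Sox9, which specifies glia, was split within SEZ. SEZ cKO replicate 3 was at 11.08 and SEZ control replicates 1 and 3 at 11.02 and 11.09, while the other SEZ samples lay between 10.27 and 10.43 and the OB samples between 9.88 and 10.45. The ependymal gene Cfap65 was also highest on these 3 arrays, at 9.41, 9.46 and 9.51 against 8.48 to 8.97 in the other SEZ samples. The mean of all 10 ependymal markers split the arrays less clearly. It was 8.02, 8.06 and 8.09 on the same 3 and 7.98 in SEZ cKO replicate 2. In the remaining SEZ samples it lay between 7.65 and 7.76. The part of ependymal cells in the Sox9 values was not tested. The Sox9 difference was 0.41 (adjusted p 0.234) in cKO mice and 0.45 (adjusted p 0.0706) in controls, and 0.45 with an adjusted p of 0.00888 in controls with pairs as blocks.

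Among parenchymal genes, Clu and Ndrg2 were higher in SEZ. Clu, clusterin, a secreted chaperone of lipoprotein particles, was at 11.76, 11.57 and 11.84 in SEZ cKO samples and at 11.63, 11.89, 11.74, 11.72 and 11.74 in SEZ control samples. The OB values were 10.96, 11.16 and 10.99 in cKO samples and 11.25, 11.11, 11.01, 10.99 and 11.12 in control samples. The tissues did not overlap, and the log2 difference was 0.69 (SE 0.09, adjusted p 2.61e-05) in cKO mice and 0.65 (SE 0.07, adjusted p 1.84e-06) in controls.

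Ndrg2, a stress- and differentiation-related protein abundant in astrocytes, was at 13.34, 13.25 and 13.20 in SEZ cKO samples and at 13.24, 13.31, 13.26, 13.25 and 13.31 in SEZ control samples. OB gave 13.02, 13.00 and 13.02 in cKO samples and 13.13, 12.99, 13.05, 12.96 and 12.96 in control samples. The tissues again did not overlap. The difference was small, at 0.25 (SE 0.07, adjusted p 0.0119) in cKO mice and 0.26 (SE 0.05, adjusted p 9.54e-04) in controls. The cKO call was lost without SEZ cKO replicate 1, at 0.21 with an adjusted p of 0.0598, and without both cKO replicate 1 arrays, at 0.21 with an adjusted p of 0.115.

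Aqp4, the water channel of astrocyte endfeet, was lower in SEZ. It was at 10.02, 10.12 and 9.86 in SEZ cKO samples and at 9.84, 10.20, 9.85, 10.09 and 10.13 in SEZ control samples. In OB it was at 10.74, 10.57 and 10.48 in cKO samples and at 10.35, 10.78, 10.46, 10.39 and 10.37 in control samples. No SEZ sample reached an OB sample, and the log2 difference was -0.60 (SE 0.12, adjusted p 0.00175) in cKO mice and -0.45 (SE 0.10, adjusted p 0.00182) in controls.

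Acsbg1, an acyl-CoA synthetase that activates fatty acids, was at 10.98, 10.80 and 10.73 in SEZ cKO samples and at 10.65, 10.81, 10.71, 10.88 and 10.91 in SEZ control samples. The OB values were 11.19, 11.12 and 10.97 in cKO samples and 11.06, 11.18, 10.90, 11.08 and 11.08 in control samples. The highest SEZ sample of each genotype lay just above the lowest OB sample. Its log2 difference was -0.26 (SE 0.10, adjusted p 0.0641) in cKO mice and -0.27 (SE 0.07, adjusted p 0.0105) in controls.

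Slc7a10, a transporter of small neutral amino acids such as D-serine, was at 10.12, 9.84 and 9.81 in SEZ cKO samples and at 10.13, 9.94, 10.04, 9.76 and 9.88 in SEZ control samples. OB gave 10.22, 10.09 and 10.22 in cKO samples and 10.30, 10.10, 10.32, 10.14 and 10.09 in control samples. The highest SEZ sample of each genotype overlapped the lowest OB samples. The log2 difference was -0.25 (SE 0.11, adjusted p 0.11) in cKO mice and -0.24 (SE 0.08, adjusted p 0.0404) in controls, where it was lost in 10 of 34 alternatives. Without both SEZ control replicates 2 and 4 it was -0.17 (adjusted p 0.224). Leaving out SEZ control replicates 2, 4 or 5 or OB control replicates 1, 3 or 4 each ended it, with adjusted p-values of 0.0541 to 0.114.

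Slc4a4, a sodium bicarbonate cotransporter, was at 12.09, 12.24 and 12.22 in SEZ cKO samples and at 12.08, 12.10, 12.19, 12.16 and 12.14 in SEZ control samples. In OB it was at 12.33, 12.42 and 12.27 in cKO samples and at 12.19, 12.47, 12.20, 12.31 and 12.40 in control samples. The cKO samples did not overlap and the control samples met at 12.19. The difference was -0.16 (SE 0.08, adjusted p 0.216) in cKO mice and -0.18 (SE 0.06, adjusted p 0.0471) in controls. The control call was lost in 18 of 34 alternatives, among them the fit with pairs as blocks, where the adjusted p was 0.0607. Any SEZ control replicate, OB control replicates 2, 4 or 5, SEZ cKO replicates 2 or 3 and OB cKO replicate 1 each ended it when left out, with adjusted p-values of 0.051 to 0.132. The adjusted p was 0.133 without both SEZ control replicates 2 and 4, 0.0569 without both cKO replicate 3 arrays and 0.0577 without both cKO replicate 1 arrays.

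Atp1b2, a subunit of the sodium pump, had differences of -0.23 (adjusted p 0.0359) in cKO mice and -0.18 (adjusted p 0.0367) in controls, with an adjusted p of 0.0538 in controls with pairs as blocks. Its call was lost in 7 of 34 alternatives in cKO mice and in 11 of 34 in controls. In cKO mice SEZ or OB replicates 1 or 2 each ended it when left out (adjusted p 0.0796 to 0.14), and in controls SEZ replicates 2 or 4 or OB replicates 1, 2, 3 or 5 did so (0.0639 to 0.105). Without both SEZ control replicates 2 and 4 the control difference was -0.10 (adjusted p 0.313). Without both cKO replicate 1 arrays the adjusted p was 0.164 in cKO mice and 0.0542 in controls.

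**Figure D3:**
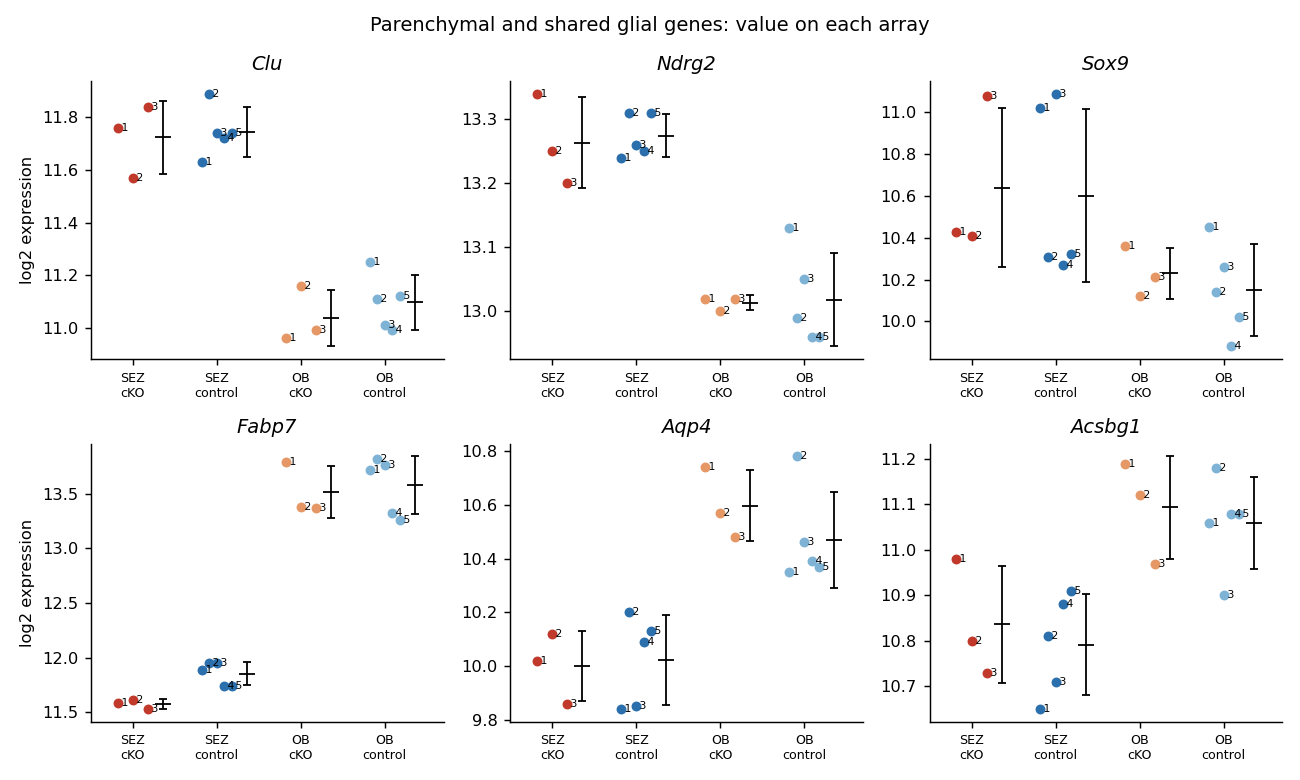
Log2 expression (vertical axis) of Clu, Ndrg2, Sox9, Fabp7, Aqp4 and Acsbg1 on each array, by tissue and genotype, with replicate numbers as digits and the mean ± SD as black bars. Clu and Ndrg2 lie higher in SEZ, Fabp7 and Aqp4 lie higher in OB without overlap, and Sox9 is split within SEZ between values above 11 and values of 10.43 or less.

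The remaining parenchymal genes were not called between the tissues in either genotype. The connexin genes Gja1 and Gjb6, which form astrocyte gap junctions, were not called: Gja1 had 0.27 in cKO mice and 0.17 in controls on the log2 scale, and Gjb6 0.11 in cKO mice and -0.31 in controls. Aldh1l1, a folate enzyme used as a general astrocyte marker, had a difference of 0.50 in cKO mice and 0.33 in controls. For Fgfr3, a growth factor receptor, it was 0.47 in cKO mice and 0.24 in controls, and both genes were above 0 in all 8 pairs. With pairs as blocks, 3 more parenchymal genes passed in controls: Aldh1l1 was higher (adjusted p 0.0312), and Gjb6 (0.032) and Dio2 (0.0315), the deiodinase that activates thyroid hormone, were lower in SEZ. That fit called 7 of the 30 genes higher and 7 lower in controls, with 32.4% of all genes called, 17.2% higher and 15.2% lower. Aldoc, the glycolytic aldolase of astrocytes, Glul, a glutamine synthetase, Apoe, the brain's main apolipoprotein, and S100b, a calcium-binding protein, differed by at most 0.22 in either direction. For Apoe the 95% interval ran from -0.20 to 0.23 in cKO mice and from -0.28 to 0.05 in controls. Mlc1, a membrane protein of astrocyte volume control, had differences of 0.14 in cKO mice and 0.07 in controls, and Ntsr2, a neurotensin receptor, of -0.03 in cKO mice and 0.08 in controls. Sparcl1, a secreted protein that promotes synapses, had -0.19 in cKO mice and -0.17 in controls, and Slc7a11 had -0.22 in cKO mice and 0.03 in controls. Cldn10, a claudin of astrocytes, had 0.62 (adjusted p 0.113) in cKO mice and 0.28 (adjusted p 0.392) in controls. For Dio2 the values were 0 in cKO mice and -0.31 in controls.

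On each array, the mean of the 6 niche genes minus the mean of the 21 parenchymal genes was -2.33, -2.14 and -1.97 in SEZ cKO and -2.15, -1.96, -1.97, -2.11 and -2.23 in SEZ control samples. It was -2.64, -2.73 and -2.64 in OB cKO and -2.60, -2.46, -2.62, -2.53 and -2.66 in OB control samples. All SEZ samples lay above all OB samples. The parenchymal mean alone was 11.13 ± 0.13 in SEZ cKO, 11.11 ± 0.08 in SEZ control, 11.07 ± 0.07 in OB cKO and 11.11 ± 0.09 in OB control samples (SD over 3 samples of each cKO group and 5 of each control group). The niche mean was 8.98 ± 0.08 in SEZ cKO, 9.02 ± 0.12 in SEZ control, 8.40 ± 0.06 in OB cKO and 8.54 ± 0.16 in OB control samples. Without Thbs4, the mean of the other 5 niche genes minus the parenchymal mean ran from -2.54 to -2.22 in SEZ cKO and -2.39 to -2.15 in SEZ control samples, and from -2.56 to -2.46 in OB cKO and -2.51 to -2.28 in OB control samples. The tissues then overlapped in both genotypes, so the separation of the 6-gene mean rests on Thbs4. These means are descriptions with no test.

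Markers of other cells moved with the tissue as well. Their counts in controls stand against 14.9% of all genes higher and 12.6% lower in SEZ. In controls 9 of 10 ependymal markers were higher in SEZ and 1, Dnah11, was lower, and the list mean ranged from 7.76 to 8.02 in SEZ cKO, 7.65 to 8.09 in SEZ control, 7.19 to 7.31 in OB cKO and 7.15 to 7.21 in OB control samples. Of 6 measured oligodendrocyte markers all 6 were higher in SEZ, of 9 endothelial and pericyte markers 5 were higher, and of 6 microglia markers 4 were higher, with 0 lower in each list. Striatal neuron markers were higher (3 of 3 measured) and bulb interneuron markers lower (5 of 5) in SEZ. Of 6 choroid plexus markers 4 were higher in SEZ of controls: Clic6 (2.44), Ttr, the thyroid hormone carrier transthyretin (2.22), Kl (0.76) and Folr1, a folate receptor (0.56). That list's mean ranged from 7.36 to 7.7 in SEZ cKO, 7.08 to 7.87 in SEZ control, 6.50 to 6.51 in OB cKO and 6.42 to 6.70 in OB control samples. Of 5 neuroblast markers 4 were lower in SEZ of controls: Dcx (-2.11), Dlx2 (-1.64), Nrep (-1.15) and Cd24a (-0.57). The part of these cells in the glial differences was not tested.

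**Figure D4:**
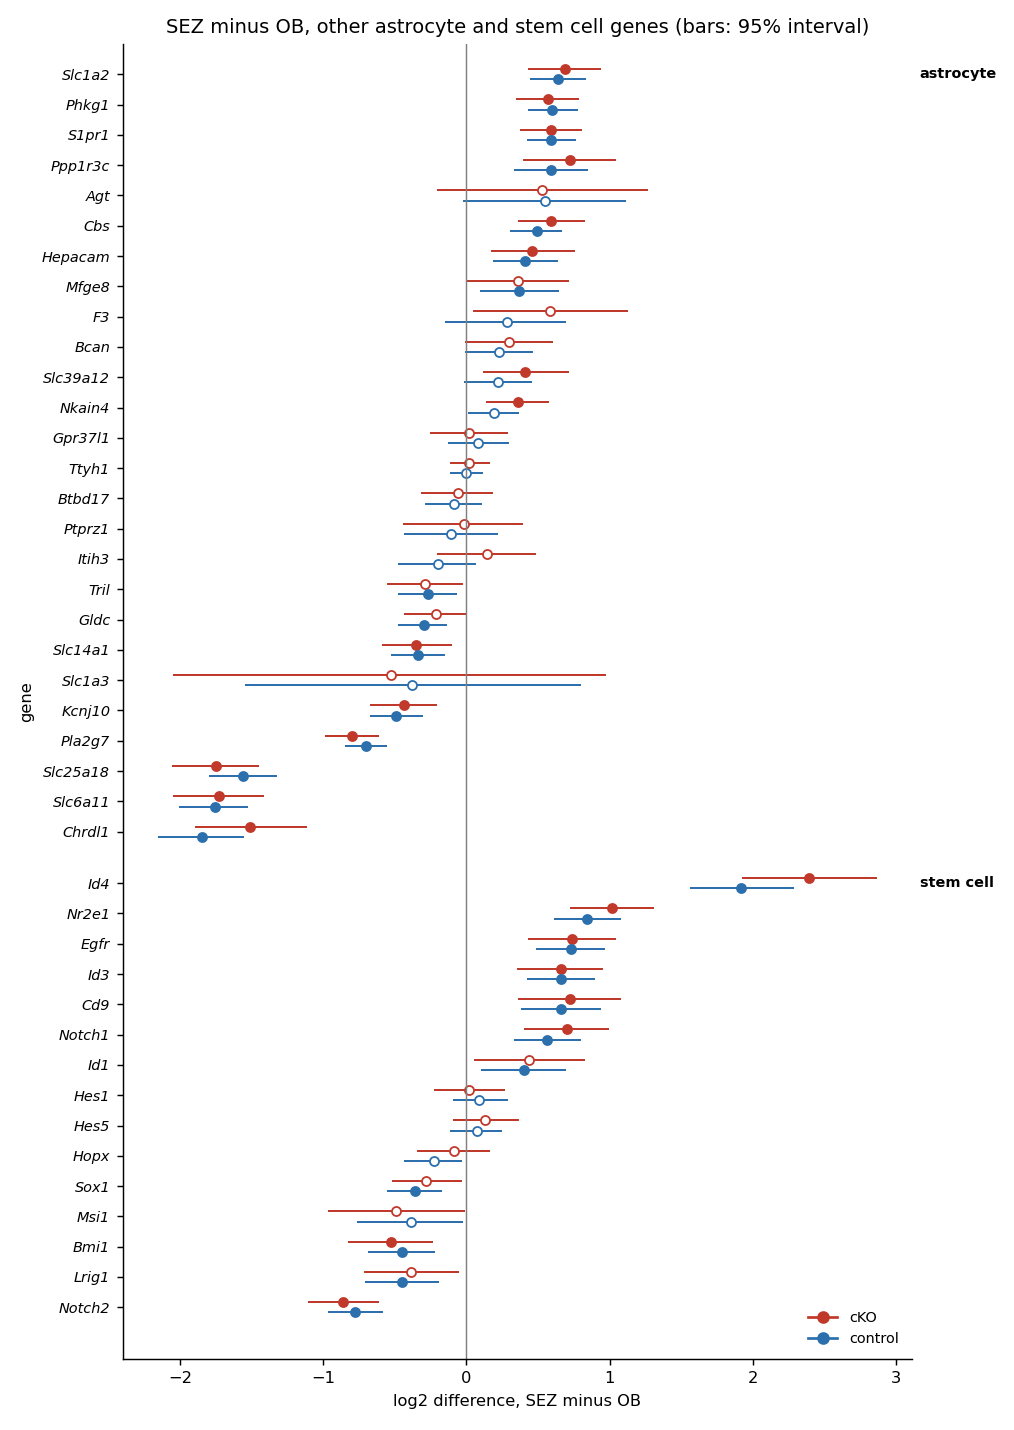
Log2 difference between SEZ and OB (horizontal axis) in cKO mice (red) and controls (blue) for other astrocyte and stem cell genes (vertical axis), with 95% intervals; filled points had an adjusted p under 0.05. Id4 (2.39 in cKO mice and 1.92 in controls) lies highest, and Chrdl1, Slc6a11 and Slc25a18 lie below -1.5 in both genotypes.

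Further genes of the same cells, from lists compiled by role, gave values on both sides of 0. Of 26 other astrocyte genes, 8 were higher and 6 lower in SEZ of cKO mice, and 7 higher and 8 lower in controls. Over all genes, 13.1% were higher and 10% lower in cKO mice, and 14.9% higher and 12.6% lower in controls. Slc6a11, the GABA transporter of astrocytes, had log2 differences of -1.73 in cKO mice and -1.76 in controls, and Chrdl1, a secreted BMP antagonist, of -1.51 in cKO mice and -1.85 in controls. Slc25a18, a mitochondrial glutamate carrier, had differences of -1.75 in cKO mice and -1.56 in controls. Pla2g7, a phospholipase that acts on platelet-activating factor, had -0.80 in cKO mice and -0.70 in controls. These 4, the largest called differences of that list in either genotype, were all lower in SEZ.

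Of 15 other adult stem cell genes, 6 were higher and 2 lower in SEZ of cKO mice, and 7 higher and 4 lower in controls. The shares of all genes were 13.1% higher and 10% lower in cKO mice, and 14.9% higher and 12.6% lower in controls. Id4, an inhibitor of bHLH factors, had differences of 2.39 in cKO mice and 1.92 in controls. Nr2e1, the nuclear receptor Tlx needed for stem cell upkeep, had 1.02 in cKO mice and 0.84 in controls. Egfr, a receptor of activated stem cells, had 0.74 in cKO mice and 0.73 in controls. Notch2, a receptor of the Notch pathway, was lower (-0.86 in cKO mice, -0.78 in controls). Of 13 measured reactive astrocyte genes, Cd109 (1.35 in cKO mice, 1.13 in controls) and Cd44, a hyaluronan receptor (0.36 in cKO mice, 0.43 in controls), were higher in both genotypes and 0 were lower. These 2 of 13 are near the share of all genes called higher, 13.1% in cKO mice and 14.9% in controls.

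Between genotypes, 0 of the 30 genes were called in either tissue. In SEZ 0% of all genes were called by limma, and 1 of the 30 and 492 of all genes had an unadjusted p under 0.05. In OB 0.0451% of all genes were called, all of them lower in cKO, and 1 of the 30 and 700 of all genes had an unadjusted p under 0.05. The median log2 difference over the 30 genes was 0 in SEZ and -0.03 in OB, against 0 and -0.01 over all genes. In SEZ the bound of the 95% interval furthest from 0 was under 1 for all 30 genes and under 0.5 for 21, and in OB it was under 1 for all 30 and under 0.5 for 23. For Ndrg2 it was 0.14 in SEZ and 0.13 in OB, and the widest were 0.97 for Slc7a11 in SEZ and 0.95 for Tnc in OB.

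Tnc in OB came nearest to a call. The values given above, 6.93 to 7.02 in OB cKO and 7.45 to 7.91 in OB control samples, did not overlap. Tnc was the only one of the 30 without overlap in OB, where 1.57% of all genes were lower in cKO without overlap and 0.958% higher. The cKO minus control difference was -0.68 (SE 0.13, 95% interval -0.95 to -0.41), with an unadjusted p of 6.72e-05 and an adjusted p of 0.122. Over 32 alternatives the difference lay between -0.73 and -0.62 and the adjusted p between 0.0707 and 0.733. In SEZ the difference was -0.07 (SE 0.13, 95% interval -0.35 to 0.20), and the SEZ samples overlapped. The difference between the tissue effects, SEZ minus OB, was 0.60 (SE 0.18, unadjusted p 0.00408, adjusted p 1). For this comparison of effects 1 of the 30 (Tnc) and 296 of all genes had an unadjusted p under 0.05.

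Fabp7 had the smallest unadjusted p in SEZ. The 3 SEZ cKO samples, at 11.53 to 11.61, lay below the 5 SEZ control samples, at 11.74 to 11.95, as was so for 1.05% of all genes, with 0.943% of all genes higher without overlap. No other of the 30 genes was without overlap in SEZ. The log2 difference was -0.28 (SE 0.13, 95% interval -0.55 to 0), with an unadjusted p of 0.0489 and an adjusted p of 1. In OB it was -0.06 (95% interval -0.34 to 0.21), and the groups overlapped.

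Fgfr3 and Gjb6 came next in SEZ. Fgfr3 was at 10.60, 10.26 and 9.98 in SEZ cKO samples and at 9.71, 10.19, 9.88, 10.21 and 10.24 in SEZ control samples, a difference of 0.24 (SE 0.16, adjusted p 1). Gjb6 was at 9.46, 8.58 and 8.55 in SEZ cKO samples and at 8.80, 8.55, 8.41, 8.42 and 8.87 in SEZ control samples, a difference of 0.25 (SE 0.18, adjusted p 1). In both genes the groups overlapped, SEZ cKO replicate 1 was the highest SEZ sample, and without it the difference was 0.08 for Fgfr3 and -0.05 for Gjb6. With 1 other SEZ array left out, Fgfr3 lay between 0.15 and 0.39 and Gjb6 between 0.20 and 0.41. On that array 20 of the 21 parenchymal genes lay above their SEZ cKO mean.

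After Tnc, the smallest p-values in OB belonged to Aldoc and Cldn10. Aldoc was at 12.87, 13.01 and 12.82 in OB cKO samples and at 13.01, 13.12, 12.99, 13.01 and 13.01 in OB control samples, a difference of -0.13 (SE 0.07, adjusted p 1). Cldn10 was at 9.50, 10.57 and 9.45 in OB cKO samples and at 9.90, 10.48, 9.93, 10.38 and 10.53 in OB control samples, a difference of -0.41 (SE 0.24, adjusted p 1). OB cKO replicates 1 and 3 were the lowest OB samples in both genes, and replicate 2 lay within or above the control range. Without OB cKO replicate 2 the difference was -0.77 for Cldn10 (adjusted p 0.287) and -0.19 for Aldoc (adjusted p 0.455). Without OB cKO replicate 1 it was -0.24 for Cldn10 and -0.11 for Aldoc, and without OB cKO replicate 3 it was -0.21 for Cldn10 and -0.09 for Aldoc. Among the other genes, Glul was at 13.11, 13.01 and 13.07 in OB cKO samples and at 13.08, 13.09, 13.02, 12.80 and 13.01 in OB control samples, a difference of 0.06 (SE 0.09, adjusted p 1).

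The other lists gave the same count between genotypes. In each tissue 0 of 26 other astrocyte genes, 0 of 15 other stem cell genes and 0 of 13 measured reactive astrocyte genes were called. Slc1a3 had differences of -1.21 in SEZ and -1.05 in OB (adjusted p 1 in each), with cKO replicate 3 far below the other samples in each tissue, as given above. Of 5 neuroblast markers 2 changed in OB: Cd24a, a surface protein of migrating neuroblasts (-1.50, adjusted p 0.00525), and Nrep (-0.71, adjusted p 0.0378) fell in cKO mice.

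**Figure D5:**
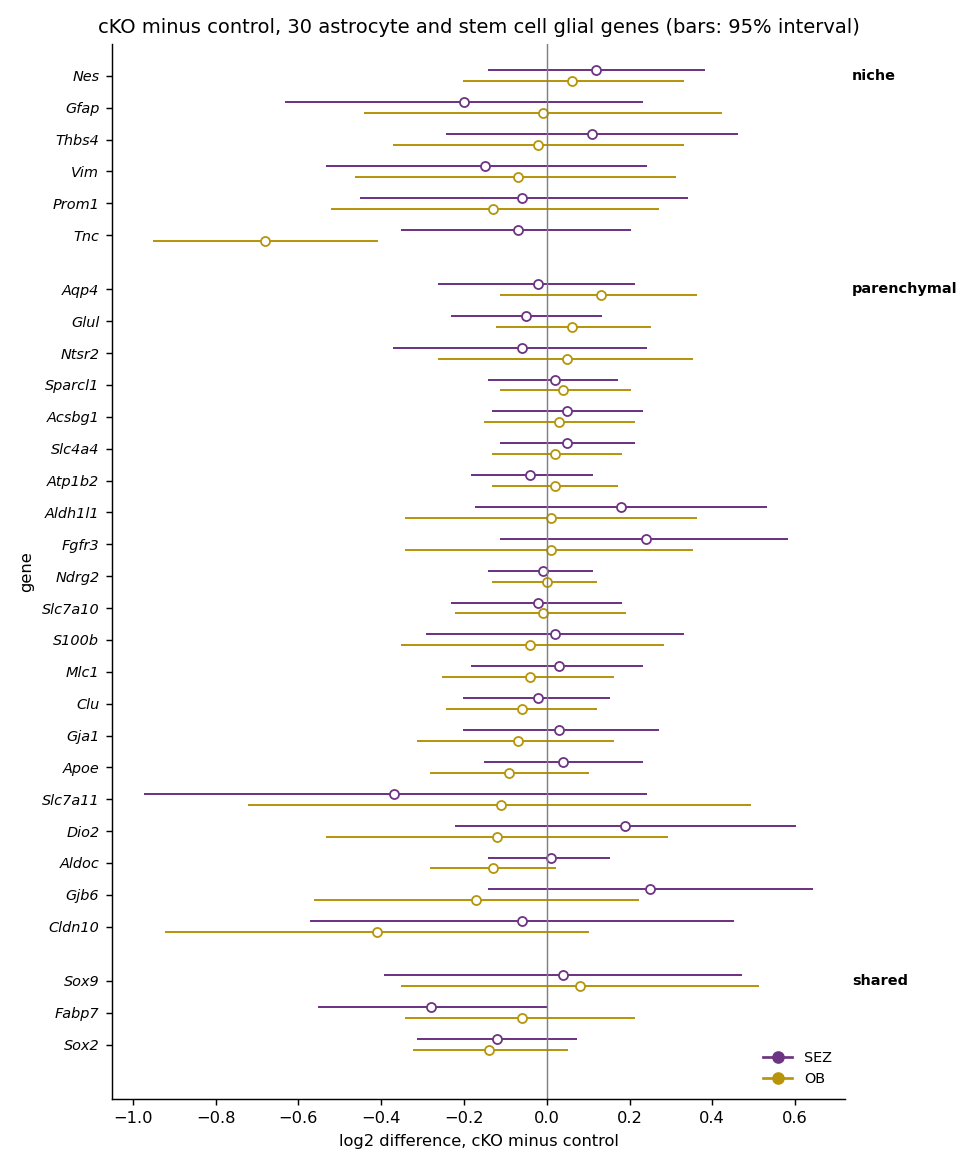
Log2 difference between cKO and control (horizontal axis) for each of the 30 genes (vertical axis), in SEZ (purple) and in OB (gold), with 95% intervals as bars. All points are open, since 0 of these genes had an adjusted p under 0.05, and Tnc in OB at -0.68 is the point furthest from 0, with an interval of -0.95 to -0.41.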

How the data were processed

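RNA was extracted with column kits that included DNase digestion, per the labels' protocols. The deposited values are log2 expression per probe set, made by the authors with RMA (background correction, quantile normalisation, probe summarisation) in Affymetrix Expression Console 1.2, per the submitters' processing notes. Build and annotation version were not given in the sources used here. The platform annotation gave a single gene symbol for 21789 of 35556 probe sets, several for 1621 and none for 12146. By Entrez identifier 21698 were found in a RefSeq table (GRCm38.p6), and 0 symbols changed. The brightest probe set was kept for each of 19938 genes, of which 999 had more than 1 (Glul and Cldn10 among the 30). Array medians lay between 7.45 and 7.65.

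All 16 arrays were fitted with limma 3.58.1 in R 4.3.3 (lmFit, eBayes; 4 groups, 12 residual and 4.34 prior degrees of freedom), two-sided, with Benjamini-Hochberg adjustment over all genes, a threshold of 0.05 and 95% intervals. The code was tested on simulated data. The number of arrays limits the precision. P-values measure the spread between these samples, which the labels call biological replicates.

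Samples carry replicate numbers, which the labels do not tie to animals. By its label SEZ control replicate 5 has 0 floxed copies of Brg1, while OB control replicate 5 has 1. By the labels this control pair is thus not 1 animal, yet it is kept as a block in the blocked values. Deviations of SEZ and OB samples with the same number correlated at 0.17 to 0.57 over 5 control pairs and at -0.06, 0.25 and 0.39 over the cKO pairs. The control pairs passed the criterion of over 0.1 in every pair, so the blocked value stands beside a control result whose call it changes. Samples of 1 tissue with the same number but different genotype cannot be 1 animal, yet 5 of 6 such pairs also lay over 0.1. Their correlations ran from -0.41 to 0.61. The criterion thus does not tell pairs from 1 animal apart from samples that share a number, and the blocked values carry that limit.

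The 30 genes, lists and alternatives were chosen with earlier results of these data known. Values by sample are given for niche genes, for up to 5 other genes with the largest called tissue difference in each direction in controls, for the 3 smallest p-values in each genotype contrast, and for genes with an outlying sample. Other genes named are up to 4 of a list with the largest called difference, or markers that move with a result. Some listed genes were not analysed here, and counts are over the measured members. Alternatives covered samples, filters, normalisation, array weights, variance model, probe set choice, blocks, test and threshold.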

Additional observations from a re-analysis of the deposited data

Results flagged for a closer look

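In the 5-sample groups, 60 sets of values were checked for a sample far from the others, and 4 values stood apart, in 3 OB control samples. Chance alone gives about 1 in 20 sets. Prom1 was at 7.30 in OB control replicate 3, the lowest of its group, against 7.77 to 7.94 in the others. Aqp4 was at 10.78 in OB control replicate 2, against 10.35 to 10.46. Aldoc was at 13.12 in the same sample, against 12.99 to 13.01. In that sample 26 of the 30 genes lay above their OB control mean. Glul was at 12.80 in OB control replicate 4, against 13.01 to 13.09.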

How the results depend on the processing

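The calls of Thbs4, Clu, Aqp4 and Fabp7 between the tissues held under all 34 alternatives in each genotype, and that of Ndrg2 in controls, with Thbs4 between 2.06 and 2.48 and Fabp7 between -2.01 and -1.66. Leaving out 1 array at a time gave 6 to 9 called genes in cKO mice and 8 to 11 in controls. Without both cKO replicate 1 arrays the cKO count was 5, against 8 on all arrays (Nes, Thbs4, Aqp4, Clu and Fabp7 remained). With every probe set kept in the fit, which raises the number of tests, the control count was 7, against 11. With the replicate block the cKO count was 14 (number across all groups) and 15 (number within genotype), and the control count was 14 in either case. A random block gave 12 and 13, at a correlation of 0.18. The block within genotype also raised the share of all genes called in controls, to 32.4% from 27.5%. For the other alternatives the share of all genes is not given here, so their counts are not read as results about these genes. In cKO mice the block by genotype is given here only, because 1 of 3 pairs did not correlate; under it Gfap was lower in SEZ with an adjusted p of 0.0148, and with only the cKO arrays fitted the adjusted p was 0.036. Centring each array on its median gave 4 higher and 4 lower in cKO mice, against 5 and 3, and moved the median of all genes by at most 0.03. Between genotypes, and for the difference of effects, the count was 0 under every alternative and every left-out array, the replicate block included. Gjb6 between genotypes in SEZ, 0.25 on all arrays, lay between -0.05 and 0.41 with 1 array left out, was -0.05 without both cKO replicate 1 arrays, and was not called in any setting. Without SEZ cKO replicate 3 and SEZ control replicates 1 and 3, an alternative chosen after seeing the data, the counts were 10 in cKO mice and 10 in controls, and calls were lost for Nes in both genotypes (0.30, adjusted p 0.121 in cKO mice; 0.26, 0.086 in controls), for Tnc in cKO mice (0.32, 0.131) and for Acsbg1 (-0.19, 0.0753) and Slc4a4 (-0.18, 0.0977) in controls, while Prom1 (0.79, 0.00416) and Cldn10 passed in cKO mice and Aldh1l1 and Fgfr3 in both genotypes. With 3 cKO arrays a group, limits rest on the intervals given for each gene.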
